A study of Mus musculus with 10 samples.

Results

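Autophagy is the route by which a cell wraps part of its own contents in a double membrane, the autophagosome, and delivers it to the lysosome for breakdown. Here 39 mouse genes of this machinery were followed in femur RNA after 24 h of hindlimb unloading: the kinases that start the process, the lipid kinase complex, the enzymes that attach and remove Atg8 proteins, the Atg8 proteins themselves, the receptors that hold cargo, the transcription factors that regulate lysosomal genes, and proteins of the lysosome. They were taken as the array's gene probes that carry a listed symbol or an accession of that gene. By that rule 38 of the 39 were found, with 74 probes, and all 38 were tested, out of 18955 genes tested in all. No probe was found in this way for Atg9a, the lipid scramblase of the growing membrane, which was not analysed here.

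The unloaded group was 5 male ICR mice aged 6 months that hung by the tail in a 45° head-down tilt for 24 h, so that the hind legs bore no weight. The control group was 5 male ICR mice of the same age that walked freely. Total RNA of the femur of each mouse was labelled with Cy3 and read on an Agilent one-colour array of its own. Animals were housed singly, and chance decided which group each joined. The tissue was whole femur bone, a mixture of cells, so fewer cells of a type and less RNA per cell cannot be told apart. Levels are log2 spot intensity minus the 75th percentile of the array, and each difference is unloaded minus control. A level is comparable between animals for 1 probe and not between probes.

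The RNA carried bone: of 10 osteoblast and osteocyte markers, 9 were well above background on all 10 arrays. Bglap, the osteocalcin gene, was counted on 9, with high mean levels of 7.21 in unloaded animals and 7.17 in controls. In such counts an array on which a probe's spots were left out as outliers does not count as above background. A count below 10 therefore need not mean a dim probe. Of each array's gene spots, 89.8% to 95.5% passed the scanner's test against background. All 12 skeletal muscle markers, 7 of 8 neutrophil markers and 7 of 12 erythroid markers were also well above background on every array. The arrays lay on 3 slides: slide 1 held controls 1 to 4, slide 2 held unloaded animals 1 to 3 and control 5, and slide 3 held unloaded animals 4 and 5. Group and slide therefore overlap only on slide 2, where there is 1 control. Unloaded animal 5 stood apart from its group, with a median correlation of 0.977 with the other unloaded arrays. The other 9 arrays had 0.986 to 0.989 with their own groups.

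In bone, autophagy is known as a survival route of osteocytes, which live enclosed in mineral. Osteoblasts use autophagic vesicles in mineralisation, and osteoclasts use the Atg5, Atg7 and LC3 conjugation system and lysosomal fusion to build the ruffled border through which they dissolve bone. Transcription of the machinery is regulated by the MiT/TFE factors, while its activity is set mainly by phosphorylation and lipidation of proteins, which an array of RNA does not see.

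After 24 h of unloading, none of the 38 genes differed between the groups at an adjusted p below 0.05. Adjusted p-values of limma, a moderated linear model over all probes, ran from 0.253 to 0.948. Of all 18955 genes 0.00528% were called at that threshold, which is 1 gene. The differences were small: 29 of the 38 lay within 0.20 of 0 on the log2 scale, and the extremes were -0.36 for Nbr1 and 0.27 for Atg4b. The 95% interval of the difference lay within 0.5 of 0 for 32 of the 38 genes and within 1 of 0 for all 38. The farthest bound was -0.63, for Nbr1, and the standard errors ran from 0.08 to 0.18.

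By unadjusted limma p, 7 of the 38 (18.4%) were below 0.05, against a background of 15.9% of all genes tested. Of the 7, 2 were higher in unloaded femurs (Atg4b and Tfeb), where the background was 10.1%, and 5 were lower (Nbr1, Ambra1, Atg3, Atg4a and Atg4c), where it was 5.74%. No member had groups that did not overlap, while 3.33% of all genes did. In both directions together the share of members at this level is near the background. By direction it is above the background for lower genes and below it for higher ones, on counts of only 5 and 2. The share in both directions moved when single animals were left out. Without unloaded animal 5 it was 3 of 38 (0 higher, 3 lower) beside 10.5% of all genes. Without control 2 it was 2 beside 10.6%, and without control 3 it was 3 beside 10.2%.

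**Figure D1:**
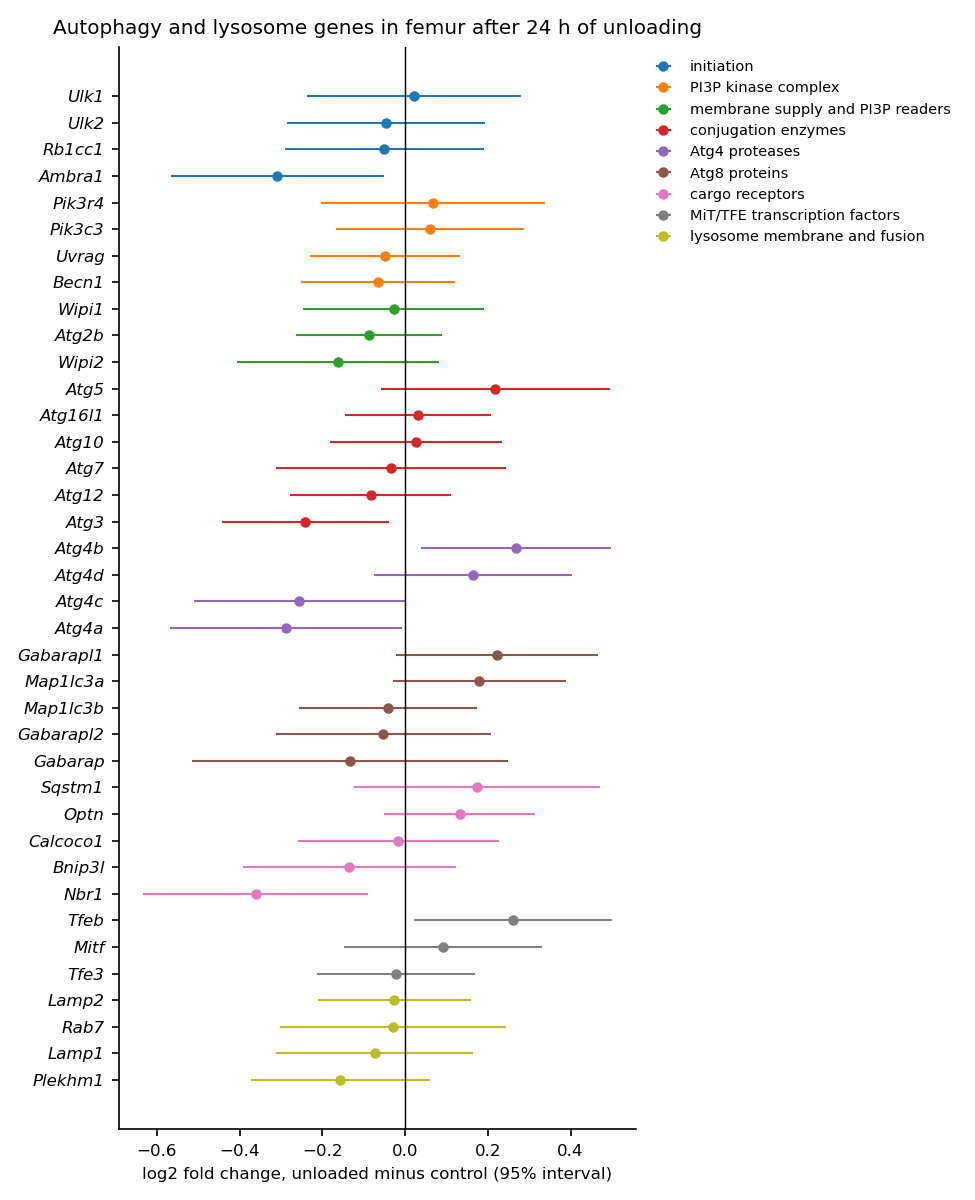
Difference in log2 level, unloaded minus control (horizontal axis), with its 95% interval from limma for the 38 genes, grouped by role. Points lie between -0.36 (Nbr1) and 0.27 (Atg4b), and the intervals of 7 genes do not include 0, before any adjustment for the number of genes tested.

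Across the 38 genes the median difference was -0.03, beside 0.06 over all genes tested, and 63.2% of the members were lower in unloaded femurs, beside 39.2% of all genes. Both medians depend on how the arrays are set level. When arrays were scaled on their medians, the member median was -0.13 and that of all genes -0.04, and 78.9% of the members were lower, beside 58.2% of all genes. With quantile normalisation the medians were -0.01 and 0.02, and 55.3% of the members were lower, beside 44.8% of all genes. Without unloaded animal 5 the member median was -0.00159 beside 0.04, and 50% of the members were lower, beside 39.9% of all genes.

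The MiT/TFE factors are the transcription factors of the lysosome. TFEB, TFE3 and MITF are held in the cytoplasm by mTORC1 when nutrients are plentiful and enter the nucleus when it is off, where they bind the CLEAR element of lysosomal and autophagy genes, and MITF also drives osteoclast genes. Tfeb stood at -1.57, -1.36, -1.57, -1.42 and -1.18 in unloaded animals 1 to 5, against -1.43, -1.82, -1.87, -1.62 and -1.66 in controls 1 to 5. Unloaded animals 2, 4 and 5 lay above every control, and unloaded animals 1 and 3 were below control 1, so the groups overlapped. The difference was 0.26 (SE 0.11), a 1.20-fold higher mean in unloaded femurs, with limma adjusted p = 0.289. Within slide 2 it was 0.16, where standard errors of the members were 0.19 to 0.24. Without unloaded animal 5 the difference was 0.20, and its unadjusted p was no longer below 0.05.

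Tfe3, which acts on the same elements, stood at -0.75, -0.71, -0.82, -0.60 and -0.86 in unloaded animals 1 to 5, against -0.67, -0.70, -0.71, -0.67 and -0.87 in controls 1 to 5. The groups overlapped widely, and the difference was -0.02 (SE 0.09, limma adjusted p = 0.905). Mitf ranged from -1.24 to -0.88 in unloaded animals and from -1.30 to -0.90 in controls, with a difference of 0.09 (SE 0.11) and limma adjusted p = 0.660. The second Mitf probe gave 0.00269. Of the 3 factors, 2 were higher in unloaded femurs, 1 was lower and 0 were called, and under median scaling Mitf was also lower. Within slide 2 Mitf was at -0.14 and Tfe3 at 0.11, both with the sign turned.

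The core of the CLEAR element is the E-box CACGTG, which reads the same on both strands. It was searched in a window from 250 bases before to 50 after each gene's start, in RefSeq promoters of assembly GRCm38.p6. Promoters were given for 32 of the 39 genes, with 41 windows, and 4 windows (9.76%) held the motif, those of Atg3, Atg5, Atg7 and Lamp1. Over all promoter windows the share was 7.15% (2349 of 32851). On the list of 30 lysosomal hydrolases and membrane proteins described further on, 12 of 26 windows (46.2%) held it. The 150 bases before the start of the 4 genes are shown because they are the members of this set with the motif that the factors above read, on the plus strand of GRCm38.p6, with each CACGTG in capitals.
Lamp1 (chr8:13159011-13159160): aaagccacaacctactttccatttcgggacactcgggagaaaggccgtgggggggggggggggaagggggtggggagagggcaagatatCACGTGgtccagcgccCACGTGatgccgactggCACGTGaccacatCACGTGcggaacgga
Atg3 (chr16:45158679-45158828): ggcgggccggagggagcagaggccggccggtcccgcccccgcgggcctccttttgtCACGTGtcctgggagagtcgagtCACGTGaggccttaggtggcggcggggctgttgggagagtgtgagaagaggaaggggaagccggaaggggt
Atg5 (chr10:44268189-44268338): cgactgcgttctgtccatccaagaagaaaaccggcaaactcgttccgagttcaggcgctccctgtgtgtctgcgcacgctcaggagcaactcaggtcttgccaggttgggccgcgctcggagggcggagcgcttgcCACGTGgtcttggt
Atg7 (chr6:114670946-114671095): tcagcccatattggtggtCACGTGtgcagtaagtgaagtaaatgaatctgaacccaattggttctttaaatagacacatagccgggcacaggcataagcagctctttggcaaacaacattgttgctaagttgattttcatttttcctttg
The Lamp1 promoter carries 4 copies, which begin 61, 45, 28 and 15 bases before the start. Atg3 has 2, at 94 and 71 bases before it, Atg5 has 1 at 14 bases and Atg7 has 1 at 132 bases. Since 32 genes gave 41 windows, some have more than 1 start. Each distance is to the start of the window shown, which need not be the gene's main start. The differences of these genes ran in both directions: Atg5 0.22, Atg7 -0.03, Lamp1 -0.07 and Atg3 -0.24. A match is a match of letters and says nothing of binding.

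Autophagy is started by the ULK kinase complex. ULK1 and its relative ULK2 are the kinases that mTORC1 restrains and AMPK activates, the scaffold FIP200, encoded by Rb1cc1, holds the complex together, and AMBRA1 joins it to the Beclin 1 complex. Ambra1 had the lowest difference of the 4. Its levels were -0.48, -0.22, -0.54, -0.59 and -0.95 in unloaded animals 1 to 5, against -0.32, -0.17, -0.26, -0.22 and -0.25 in controls 1 to 5. Unloaded animals 1, 3, 4 and 5 lay below every control, while unloaded animal 2 was among the highest of all 10, and the SD was 0.26 in unloaded animals, against 0.05 in controls. The difference was -0.31 (SE 0.12), a 1.24-fold lower mean in unloaded femurs, with limma adjusted p = 0.269. Within slide 2 it was -0.16, and without unloaded animal 5 it was -0.21.

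Ulk1 was measured at 3.62, 3.22, 3.48, 3.10 and 3.51 in unloaded animals 1 to 5, against 3.28, 3.35, 3.22, 3.64 and 3.34 in controls 1 to 5. Unloaded animals and controls covered almost the same range, and the difference was 0.02 (SE 0.12, limma adjusted p = 0.936). Its second probe gave -0.21, so the sign of Ulk1 depends on the probe. Ulk2 stood at -1.06, -1.03, -0.99, -1.27 and -0.77 in unloaded animals 1 to 5, against -0.89, -0.93, -1.12, -0.80 and -1.15 in controls 1 to 5, a difference of -0.05 (SE 0.11) with limma adjusted p = 0.839. Its other tested probes gave -0.19 and 0.12, and a further Ulk2 probe was above background on 1 array and was not tested.

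Rb1cc1 was covered by 6 tested probes, more than any other gene of the set. The brightest, which stands for the gene, gave 0.72, 0.47, 0.75, 0.35 and 0.81 in unloaded animals 1 to 5, against 0.66, 0.68, 0.49, 0.85 and 0.66 in controls 1 to 5. The groups overlapped, and its difference was -0.05 (SE 0.11, limma adjusted p = 0.820). The other probes gave -0.35, -0.26, -0.24, -0.09 and 0.18. Of these, the probes at -0.35 (limma adjusted p = 0.252) and -0.24 (limma adjusted p = 0.302) had an unadjusted p below 0.05. So 5 of the 6 probes were lower in unloaded femurs and the sixth was not.

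The Beclin 1 complex makes the lipid PI3P on the membrane where an autophagosome forms. Its lipid kinase is VPS34, encoded by Pik3c3, its regulatory subunit is VPS15, encoded by Pik3r4, Beclin 1 is encoded by Becn1, and UVRAG joins a form of the complex that works in maturation and endocytic traffic. The differences of these 4 genes lay between -0.07 and 0.07, with adjusted limma p-values of 0.684 or more. Becn1 stood at 1.44, 1.53, 1.63, 1.50 and 1.50 in unloaded animals 1 to 5, against 1.49, 1.54, 1.70, 1.53 and 1.68 in controls 1 to 5. Controls 3 and 5 held the highest levels and the difference was -0.07 (SE 0.09, limma adjusted p = 0.684). Pik3r4 stood at -1.97, -2.24, -2.12, -1.99 and -1.95 in unloaded animals 1 to 5, against -2.06, -2.25, -2.51, -1.92 and -1.85 in controls 1 to 5. Control 3 was the lowest and control 5 the highest of all 10, with the 5 unloaded animals between them, and the difference was 0.07 (SE 0.13, limma adjusted p = 0.786). Within slide 2 it was -0.25. Pik3c3 ranged from -0.91 to -0.51 in unloaded animals and from -0.89 to -0.51 in controls, a difference of 0.06. Uvrag ranged from 1.43 to 1.54 in unloaded animals and from 1.40 to 1.64 in controls, a difference of -0.05, and its second probe gave -0.15.

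ATG2 proteins carry lipid into the growing membrane and WIPI proteins read PI3P there. All 3 genes of this role that were on the array were lower in unloaded femurs by their brightest probe, and none had an unadjusted p below 0.05. However, Wipi1 was higher under quantile normalisation, with body weight as a covariate and with the mean of its probes (0.04). It was also higher within slide 2 (0.16) and without unloaded animal 5 (0.04), and Wipi2 was higher within slide 2 (0.03). Wipi2, whose product recruits ATG16L1, stood at 0.22, 0.30, -0.03, -0.00115 and -0.21 in unloaded animals 1 to 5, against 0.22, 0.24, 0.42, 0.08 and 0.13 in controls 1 to 5. Unloaded animals 3, 4 and 5 were below every control and unloaded animals 1 and 2 were among the controls, with a difference of -0.16 (SE 0.11) and limma adjusted p = 0.449. Its other probes gave -0.23, -0.16 and 0.03. Wipi1 stood at 1.92, 2.11, 1.88, 2.04 and 1.65 in unloaded animals 1 to 5, against 2.01, 2.00, 2.00, 1.92 and 1.81 in controls 1 to 5. Unloaded animals 2 and 4 were above every control and unloaded animal 5 was below all of them, and the difference was -0.03 (SE 0.10, limma adjusted p = 0.897), against 0.10 by its second probe. Atg2b ranged from -0.67 to -0.47 in unloaded animals and from -0.54 to -0.43 in controls. Of its unloaded animals 4 of 5 were below every control, a difference of -0.09 (SE 0.08) with limma adjusted p = 0.570.

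Conjugation enzymes join Atg8 proteins to lipid. ATG7 is the activating enzyme, ATG3 and ATG10 are the carrier enzymes for the Atg8 proteins and for ATG12, and ATG12 joined to ATG5 works with ATG16L1 to place Atg8 proteins on the membrane. Of these 6 genes, 3 were higher and 3 lower, and under median or quantile scaling Atg10 joined the lower ones, as did Atg16l1 under median scaling. Atg3 stood at 1.46, 1.71, 1.54, 1.57 and 1.42 in unloaded animals 1 to 5, against 1.77, 1.87, 1.91, 1.65 and 1.71 in controls 1 to 5. Unloaded animals 1, 3, 4 and 5 lay below every control, and unloaded animal 2 lay above control 4 and level with control 5. The difference was -0.24 (SE 0.09), a 1.18-fold lower mean in unloaded femurs, with limma adjusted p = 0.272. Within slide 2 it was -0.14. Its other probes went the other way, at 0.22 and 0.16, neither with an unadjusted p below 0.05, and the mean of the 3 probes gave 0.05, so the direction of Atg3 depends on the probe. All 3 were well above background on every array.

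Atg5 had the highest difference of this role, at levels of 0.49, 0.74, 0.93, 0.91 and 1.23 in unloaded animals 1 to 5, against 0.60, 0.61, 0.77, 0.47 and 0.77 in controls 1 to 5. Unloaded animals 3, 4 and 5 were above every control, and unloaded animal 1 was next to the lowest of all 10. The difference was 0.22 (SE 0.13, limma adjusted p = 0.383), it was 0.12 without unloaded animal 5, and within slide 2 it was -0.04. Atg12 stood at 1.52, 1.57, 1.56, 1.60 and 1.59 in unloaded animals 1 to 5, against 1.52, 1.73, 1.82, 1.50 and 1.69 in controls 1 to 5. The unloaded animals were close together (SD 0.03, against 0.14 in controls) and inside the range of the controls, with a difference of -0.08 (SE 0.09) and limma adjusted p = 0.623. The other Atg12 probes gave -0.00258 and 0.03. Atg16l1 stood at 1.95, 1.81, 1.88, 1.80 and 1.88 in unloaded animals 1 to 5, against 1.75, 1.83, 1.81, 1.87 and 1.90 in controls 1 to 5. Its difference was 0.03 (SE 0.08, limma adjusted p = 0.844), and its second probe gave -0.05. Atg7 ranged from -2.40 to -1.78 in unloaded animals and from -2.23 to -1.79 in controls, with a difference of -0.03, and Atg10 ranged from -1.85 to -1.48 in unloaded animals and from -1.76 to -1.51 in controls, with a difference of 0.03.

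ATG4 proteases cut Atg8 proteins so that they can be lipidated, and later free them from the membrane. Of the 4 genes, 3 had an unadjusted p below 0.05, in both directions. Atg4b, which encodes the most active of the family towards LC3, stood at -1.19, -0.96, -0.98, -0.81 and -0.82 in unloaded animals 1 to 5, against -1.36, -1.38, -1.19, -1.14 and -1.02 in controls 1 to 5. Unloaded animals 2 to 5 lay above every control, and unloaded animal 1 was among the controls. The difference was 0.27 (SE 0.11), a 1.20-fold higher mean in unloaded femurs, with limma adjusted p = 0.275. Within slide 2 it was -0.02, where control 5 was the highest of the 5 controls. A second Atg4b probe, for the same accession, gave 0.05.

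Atg4a stood at 1.12, 1.09, 0.82, 1.15 and 0.66 in unloaded animals 1 to 5, against 1.07, 1.36, 1.60, 1.13 and 1.13 in controls 1 to 5. Unloaded animals 3 and 5 were below every control, while unloaded animals 1 and 2 lay between control 1 and controls 4 and 5. Unloaded animal 4 lay just above controls 1, 4 and 5 and below controls 2 and 3. The difference was -0.29 (SE 0.13, limma adjusted p = 0.305). Without unloaded animal 5 it was -0.21 and without control 3 it was -0.20, neither with an unadjusted p below 0.05. Within slide 2 it was -0.12.

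Atg4c stood at -2.19, -2.01, -2.40, -2.11 and -2.45 in unloaded animals 1 to 5, against -1.89, -1.95, -1.77, -2.26 and -2.03 in controls 1 to 5. Unloaded animals 3 and 5 lay below every control, and control 4 was lower than unloaded animals 1, 2 and 4. The difference was -0.26 (SE 0.12, limma adjusted p = 0.308), and within slide 2 it was -0.17. The other Atg4c probes gave 0.28 (limma adjusted p = 0.258, unadjusted p below 0.05) and 0.20, the opposite direction, and the mean of the 3 probes was 0.07. Atg4d, the last of the family, ranged from 0.22 to 0.64 in unloaded animals and from 0.01 to 0.37 in controls, a difference of 0.16 (SE 0.11) with limma adjusted p = 0.435, and its other probes gave 0.18 and 0.00455.

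**Figure D2:**
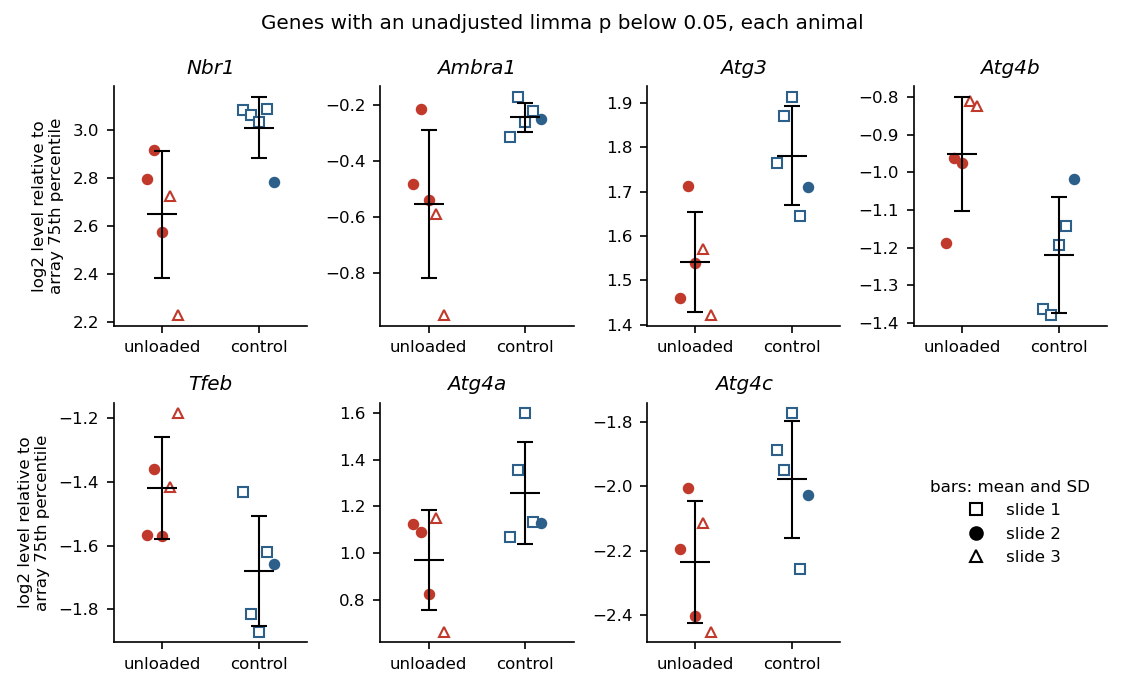
Log2 level relative to the 75th percentile of the array (vertical axis, its range set for each gene) in each animal, for the 7 genes with an unadjusted limma p below 0.05, unloaded left and control right, with mean and SD. Symbols mark the slide: the filled circles are slide 2, which alone holds both groups, and in each of the 7 panels an unloaded animal lies within the range of the controls.

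Atg8 proteins are the small ubiquitin-like proteins that coat the autophagosome and bind the receptors. LC3A and LC3B are encoded by Map1lc3a and Map1lc3b, and GABARAP, GABARAPL1 and GABARAPL2 form the other branch. None of the 5 genes had an unadjusted p below 0.05. Gabarapl1 was the highest of the differences, at levels of 4.26, 4.30, 4.46, 4.17 and 4.72 in unloaded animals 1 to 5, against 4.00, 4.15, 4.26, 4.12 and 4.28 in controls 1 to 5. Unloaded animals 2, 3 and 5 were above every control, and unloaded animal 5 stood well above the rest. The difference was 0.22 (SE 0.11, limma adjusted p = 0.336), it was 0.14 without unloaded animal 5, and the second probe gave 0.08.

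Map1lc3a ranged from 0.47 to 0.65 in unloaded animals and from 0.20 to 0.59 in controls, a difference of 0.18 (SE 0.10) with limma adjusted p = 0.353. Map1lc3b stood at 3.34, 3.57, 3.30, 3.54 and 3.37 in unloaded animals 1 to 5, against 3.41, 3.42, 3.68, 3.29 and 3.51 in controls 1 to 5. The groups covered the same range, with a difference of -0.04 (SE 0.10, limma adjusted p = 0.839) and 0.10 by its second probe. Gabarap stood at 1.87, 2.27, 1.71, 2.24 and 1.41 in unloaded animals 1 to 5, against 1.94, 2.09, 2.45, 1.64 and 2.04 in controls 1 to 5. It varied more between animals than any other gene of the set, within both groups (SD 0.36 in unloaded and 0.29 in control animals), and its difference was -0.13 (SE 0.18, limma adjusted p = 0.692), with -0.15 by its second probe. Gabarapl2 stood at 2.12, 2.43, 2.20, 2.35 and 1.89 in unloaded animals 1 to 5, against 2.12, 2.22, 2.48, 2.07 and 2.36 in controls 1 to 5. Its difference was -0.05 (SE 0.12, limma adjusted p = 0.828), and the second probe gave 0.25.

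Cargo receptors bind what is to be degraded on one side and Atg8 proteins on the other. Sqstm1 encodes p62, the receptor for ubiquitinated proteins, and NBR1 works beside it. OPTN is a receptor for damaged mitochondria and bacteria, BNIP3L (NIX) clears mitochondria and is needed for this in maturing red cells, and CALCOCO1 is a receptor for the endoplasmic reticulum and Golgi. Nbr1 had the lowest p and the lowest difference of all 38 genes. It stood at 2.80, 2.92, 2.57, 2.73 and 2.23 in unloaded animals 1 to 5, against 3.08, 3.06, 3.03, 3.09 and 2.78 in controls 1 to 5. Unloaded animals 3, 4 and 5 lay below every control, and unloaded animals 1 and 2 lay above control 5 and below the other controls. The difference was -0.36 (SE 0.13), a 1.28-fold lower mean in unloaded femurs, with limma adjusted p = 0.253. All 3 Nbr1 probes were lower, the others at -0.29 and -0.13. Without unloaded animal 5 the difference was -0.26. Within slide 2 the difference was -0.02: control 5, the control on that slide, was the lowest of the controls at 2.78.

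Sqstm1 stood at 4.03, 4.01, 4.17, 3.77 and 4.61 in unloaded animals 1 to 5, against 3.80, 3.85, 3.92, 4.01 and 4.12 in controls 1 to 5. Unloaded animal 5 was far above the rest and unloaded animal 4 the lowest of all 10, so the spread was wider in the unloaded group (SD 0.31, against 0.13 in controls). The difference was 0.17 (SE 0.14, limma adjusted p = 0.499), it was 0.05 without unloaded animal 5, and within slide 2 it was -0.06. Bnip3l stood at 4.07, 3.97, 4.09, 4.07 and 3.58 in unloaded animals 1 to 5, against 4.08, 3.92, 4.34, 4.00 and 4.11 in controls 1 to 5. Unloaded animal 5 was the lowest and control 3 the highest, and the difference was -0.14 (SE 0.12, limma adjusted p = 0.543), with 0.00178 by its second probe. Optn ranged from 0.71 to 0.90 in unloaded animals and from 0.64 to 0.79 in controls, a difference of 0.13 (SE 0.08) with limma adjusted p = 0.415, and 3 of its 5 unloaded animals were above every control. Calcoco1 ranged from -2.09 to -1.53 in unloaded animals and from -1.74 to -1.55 in controls, a difference of -0.02.

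LAMP1 and LAMP2 are the main glycoproteins of the lysosome's membrane. RAB7 brings late endosomes and autophagosomes to it, and PLEKHM1 is the adaptor that links RAB7 to fusion, which osteoclasts need to resorb bone. All 4 genes were lower in unloaded femurs by their brightest probe, by 0.16 or less on the log2 scale, though several turned higher in other settings, and none had an unadjusted p below 0.05. Quantile normalisation turned Lamp2 and Rab7, as did the mean of all probes of a gene (Lamp2 0.11, Rab7 0.0020) and some animals left out. Array weights turned Rab7, and body weight as a covariate turned Rab7 and Lamp1. The slide block turned Lamp2 (0.05 within slide 2). Plekhm1 stood at 0.81, 1.04, 0.75, 0.78 and 0.61 in unloaded animals 1 to 5, against 1.14, 0.89, 0.87, 0.94 and 0.92 in controls 1 to 5. Unloaded animals 1, 3, 4 and 5 were below every control, and the difference was -0.16 (SE 0.10, limma adjusted p = 0.417). Lamp2 stood at 3.26, 3.27, 3.26, 3.14 and 3.26 in unloaded animals 1 to 5, against 3.19, 3.43, 3.26, 3.22 and 3.21 in controls 1 to 5. Apart from unloaded animal 4 the unloaded animals were close together and inside the range of the controls, and the difference was -0.03 (SE 0.09, limma adjusted p = 0.881). Its other probes gave 0.15, for a different Lamp2 accession, and 0.20. Rab7 stood at 1.91, 2.16, 1.83, 2.15 and 1.64 in unloaded animals 1 to 5, against 1.93, 2.03, 2.22, 1.68 and 1.97 in controls 1 to 5, a difference of -0.03 (SE 0.13) with limma adjusted p = 0.915 and 0.03 by its second probe. Lamp1 ranged from 3.77 to 4.11 in unloaded animals and from 3.76 to 4.24 in controls, a difference of -0.07 (SE 0.11) with limma adjusted p = 0.728.

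How far the probes of a gene go together bears on all of these values. Of the 38 genes 16 had 1 tested probe and 22 had several. In 14 of the 22 the probes differed in sign, and in 8 they did not: Nbr1, Gabarap, Uvrag and Atg7 were lower by every probe, and Atg4b, Atg4d, Gabarapl1 and Mitf were higher by every probe. Over the 73 tested probes of the set 10 had an unadjusted limma p below 0.05, of which 3 were higher and 7 lower, beside 16.2% of all tested probes. With the mean of all probes of a gene in place of the brightest, 3 members had an unadjusted p below 0.05 (Ambra1, Tfeb and Atg4a), beside 16.2% of all genes, and 19 were higher and 19 lower, beside 35.8% of all genes lower.

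**Figure D3:**
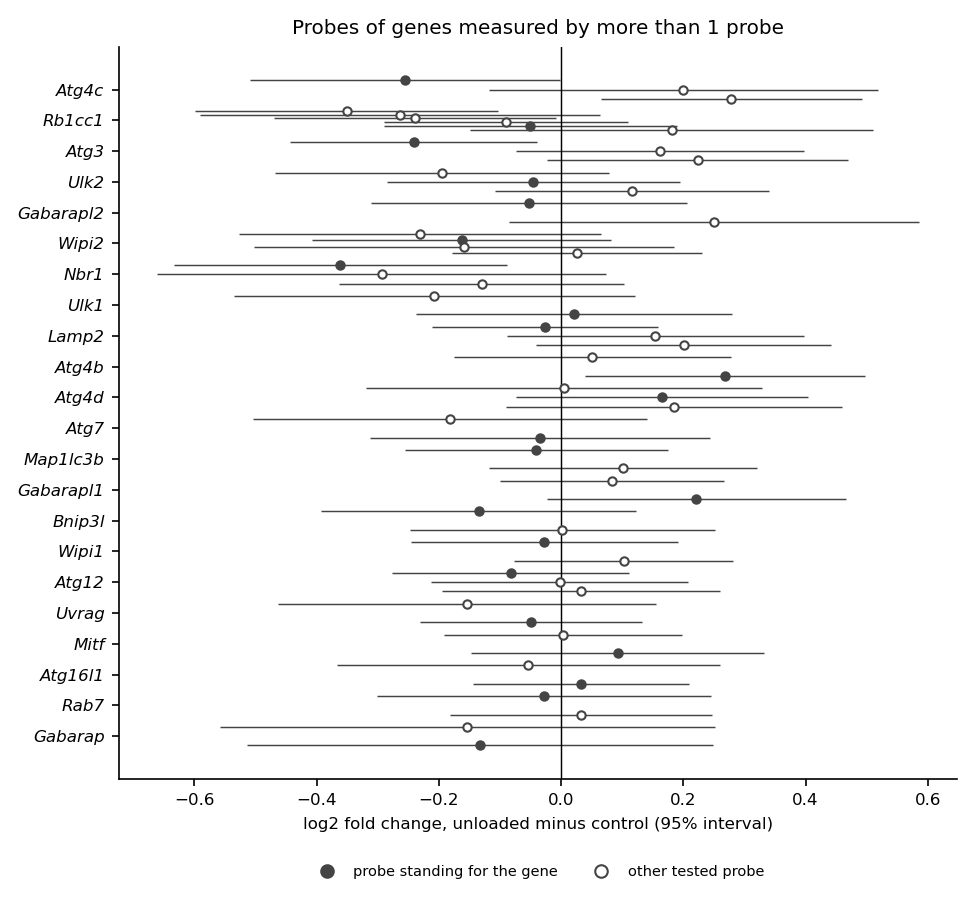
Difference in log2 level, unloaded minus control, with 95% interval, for each tested probe of the 22 genes with more than 1, ordered from the widest to the narrowest spread of their probes. Filled points are the probe with the highest mean level, which stands for the gene, and the open points of Atg4c and Atg3 lie on the other side of 0 from the filled one.

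Single animals held many of the extremes. Unloaded animal 5 held the lowest or highest level of all 10 animals in 20 of the 38 genes, the lowest in 14 and the highest in 6. Control 3 did so in 17, the highest in 12 and the lowest in 5. No other animal did so in more than 9. The same counts were not made over all genes tested, so a trait of the whole array cannot be told from one of this set. Over the tested probes unloaded animal 5 stood apart from its group, with a median correlation of 0.977. It also had the lowest share of gene spots above background of the 10 arrays, 89.8%. The lowest levels of unloaded animal 5 include Nbr1, Ambra1, Atg3, Atg4a and Atg4c, 5 of the 7 genes above, and its highest include Sqstm1, Atg5, Gabarapl1 and Tfeb.

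Some genes, picked after their values were seen, had the same animals at their extremes. Gabarap, Rab7 and Gabarapl2 were each highest in control 3, with unloaded animal 2 next, and lowest in unloaded animal 5, with control 4 next. Rb1cc1 went the other way, with control 4 and unloaded animal 5 the highest and unloaded animals 4 and 2 and control 3 the lowest, and Ulk1 was highest in control 4 and unloaded animal 1 and lowest in unloaded animal 4. The mean level of 9 tested erythroid markers was also low in unloaded animal 5, at 3.09, highest in control 3, at 3.77, and lowest in control 4, at 2.76. It was higher in unloaded animals 4 (3.61) and 1 (3.52) than in unloaded animal 2 (3.47). Monocyte and macrophage markers were also highest in control 3 (1.53) and lowest in unloaded animal 5 (0.92). B cell and endothelial markers were lowest in unloaded animal 5 too (1.08 and 0.53), while adipocyte markers were high there (1.74). The part of any cell type in these levels was not tested.

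**Figure D4:**
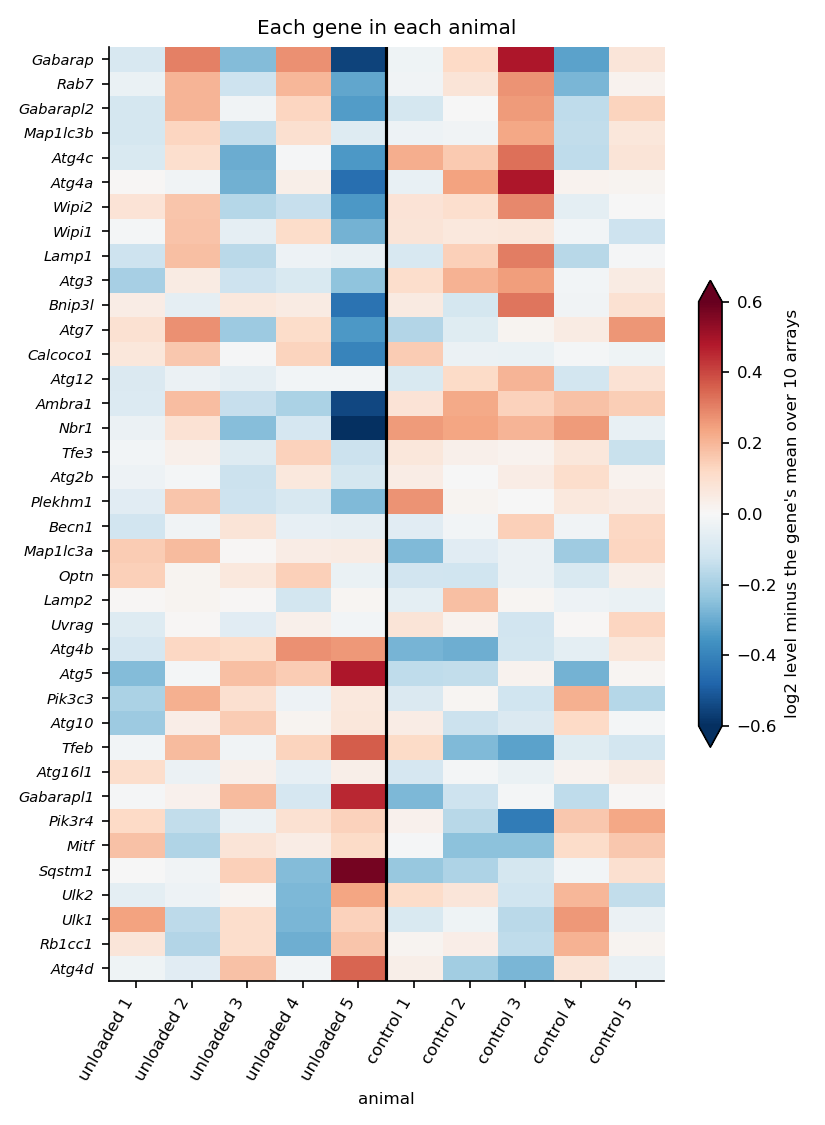
Log2 level of the 38 genes in each animal minus the gene's mean over the 10 arrays (colour scale), with unloaded animals left of the line and controls right. Genes are ordered by how alike their levels are to those of Gabarap, the gene with the widest spread, and the columns of unloaded animal 5 and control 3 hold most of the strongest colours.

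Markers of other cell types were set beside the groups, against 60.8% higher and 39.2% lower over all genes, and none was called. All 7 tested monocyte and macrophage markers were lower in unloaded femurs, 3 of them at an unadjusted p below 0.05, and their mean level was 0.92 to 1.42 in unloaded animals and 1.29 to 1.53 in controls. Skeletal muscle markers were lower in 11 of 12, with mean levels of 3.25 to 4.41 in unloaded animals and 3.13 to 4.42 in controls. Erythroid markers were lower in 6 of 9, with mean levels of 3.09 to 3.61 in unloaded animals and 2.76 to 3.77 in controls. Osteoclast markers were higher in 8 of 9 (means of 1.78 to 2.34 in unloaded animals and 1.81 to 2.09 in controls), and osteoblast and osteocyte markers were higher in 9 of 10 (means of 2.81 to 3.49 in unloaded animals and 2.98 to 3.23 in controls). Chondrocyte markers were higher in 7 of 7 (2.40 to 3.19 in unloaded animals and 2.11 to 3.00 in controls), with the highest median difference of the marker lists, 0.27. T and NK cell markers were higher in 6 of 7, 2 of them at an unadjusted p below 0.05 (-1.07 to -0.87 in unloaded animals and -1.18 to -0.98 in controls), and neutrophil markers in 6 of 8 (5.36 to 5.57 in unloaded animals and 5.29 to 5.61 in controls). Adipocyte markers were lower in 8 of 8 (0.77 to 1.74 in unloaded animals and 0.83 to 1.81 in controls). Endothelial markers were lower in 6 of 7 (0.53 to 1.06 in unloaded animals and 0.76 to 1.03 in controls), and B cell markers in 6 of 8 (1.08 to 1.78 in unloaded animals and 1.50 to 1.78 in controls). An unadjusted p below 0.05, which 15.9% of all genes had, was also found for 2 erythroid, 2 skeletal muscle, 1 adipocyte and 1 endothelial marker, all lower. It was found for 1 osteoclast marker and 1 osteoblast and osteocyte marker, both higher. The ranges of the unloaded and control animals overlapped for every list. Their part in the levels of the autophagy genes, which most cell types express, was not tested.

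The wider pathway was read from 4 further lists, to be set beside the 39.2% of all genes that were lower, the median of 0.06 over all genes and the 15.9% with an unadjusted p below 0.05. Of 27 other genes of the machinery 20 were lower and 7 higher, with a median difference of -0.08, and 2 lower ones had an unadjusted p below 0.05. These were Snap29, a fusion protein of autophagosome and lysosome, at -0.27 (SE 0.12, limma adjusted p = 0.292), and Epg5, a tether for the same step, at -0.25 (SE 0.10, limma adjusted p = 0.282). A second Epg5 probe gave 0.09 and the other Snap29 probes gave -0.11 and 0.15. Atg101, a partner of the ULK complex, was at 0.33 and Wdr45b, a WIPI relative, at 0.25, both with an unadjusted p above 0.05.

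Of 14 other receptors and mitophagy genes 8 were lower and 6 higher, with a median of -0.05. Pink1, a kinase gene of mitophagy, was at 0.20, with an unadjusted p above 0.05. Ncoa4, the ferritin receptor, was at -0.22 and Sec62, a receptor for the endoplasmic reticulum, at -0.18, both with an unadjusted p above 0.05, and the other Ncoa4 probes gave -0.06 and 0.13.

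Lysosomal hydrolases and membrane proteins were evenly split, with 14 of 30 higher, 16 lower and a median of -0.02. Ctsf, the gene of cathepsin F, was at 0.29 (SE 0.13, limma adjusted p = 0.288), and it was the single gene of the list with an unadjusted p below 0.05. Neu1, a sialidase, was at 0.20, and Tpp1, a lysosomal peptidase, was at -0.29. This is the list whose promoters held the CACGTG motif most often.

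The genes that set mTORC1 and AMPK activity stand upstream of ULK1 and of the MiT/TFE factors. Of 26 tested, 10 were higher and 16 lower, with a median of -0.07. The one gene called in the whole data is among them: Ddit4, whose product REDD1 restrains mTORC1, at 4.81, 4.26, 4.80, 4.75 and 4.78 in unloaded animals 1 to 5, against 3.53, 3.39, 3.76, 3.43 and 3.41 in controls 1 to 5. All 5 unloaded animals lay above all 5 controls, and the difference was 1.18 (SE 0.12), a 2.26-fold higher mean, with an adjusted limma p of 0.00807. It lost the call when unloaded animal 1 or 4 or control 4 or 5 was left out, and with body weight as a covariate. Its call with slide as a block is not given here. On slide 2, unloaded animals 1 to 3, at 4.81, 4.26 and 4.80, lay above control 5, at 3.41. Prkaa1, a catalytic subunit of AMPK, was at -0.23 (limma adjusted p = 0.287) and Tsc1, an mTORC1 inhibitor, at -0.32 (limma adjusted p = 0.305), but a second Prkaa1 probe gave 0.08 and the other Tsc1 probes ran from -0.38 to 0.31. Prkaa2, the other catalytic subunit, which muscle expresses, was at -0.55 (SE 0.28), with an unadjusted p above 0.05. Its probe was dim, with mean levels of -3.63 in unloaded animals (SD 0.67) and -3.08 in controls (SD 0.41). It was lowest in unloaded animal 5 at -4.68. Next to the difference of Ddit4, those of Ulk1 and Ulk2 were 0.02 and -0.05 and those of Tfeb, Tfe3 and Mitf were 0.26, -0.02 and 0.09.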

How the data were processed

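RNA of 10 femurs was measured on 10 Agilent arrays, 1 per animal. The authors' deposited scanner files hold linear intensity values. Per the file headers the arrays are Agilent design 014868, and protocol GE1-v5_91_0806 of Feature Extraction 9.1.3.1 produced the values. The deposited series matrix gives intensity of the same arrays, uncentred, with column medians of 253 to 335, and its ratios to the scanner signal were 0.995 to 1.005. With 1 colour it has no direction.

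Each gene spot's processed signal was put on the log2 scale, minus the array's 75th percentile (656 to 939 intensity units). Spots of a probe were averaged after 97 outlier spots had been left out, and no tested probe was saturated. Testing required a probe to pass the background flag on 4 or more of the 5 arrays in either group, with 3 or more measured arrays per group, which left 38629 probes. The minimum of 3 came from earlier processing of these data. RefSeq names of GRCm38.p6 gave 18955 genes, each represented by its tested probe with the highest mean. Of all 41174 gene probes, before the background filter, 22951 were named by accession, 6659 by symbol and 3109 by synonym. The other 8455 kept the file's name and did not stand for a gene. Members were found by accession (62 probes) or symbol (12), and 6 probes with older names were set aside.

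The comparison used lmFit and eBayes from limma 3.58.1 (R 4.3.3), two-sided and without covariates, with Benjamini-Hochberg adjustment over all tested probes and a threshold of 0.05. The method was tested on simulated data with larger changes than those of the members and no slide effect. That test does not bear on the small differences of the members or on the overlap of group and slide. Member values are given animal by animal where the unadjusted p is below 0.05, where probes differ in sign, or where the gene is the highest or lowest of its role. Up to 4 genes of each pathway list are named, those with the smallest p, and 2 genes that this rule takes are not reported here. The members and lists were chosen with earlier results of these data known. Alternatives covered background correction, scaling, filters, choice of probe, variance model, array weights, body weight, slide, the replicate number and each animal left out. The number of arrays limits the precision.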

Additional observations from a re-analysis of the deposited data

Results flagged for a closer look

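Of the 76 groups of 5 values given by the 38 genes, 6 had an animal far from the other 4 by Dixon's test, where chance gives about 1 in 20. Nbr1 was low in control animal 5, at 2.78, with the nearest other control at 3.03, and that is the control that shares a slide with unloaded animals 1 to 3. Tfe3 was low in the same animal, at -0.87 with the nearest at -0.71. Bnip3l was low in unloaded animal 5, at 3.58 with the nearest at 3.97. Lamp2 was low in unloaded animal 4, at 3.14 with the nearest at 3.26. In control animal 1, Calcoco1 was high at -1.55 with the nearest at -1.71, and Plekhm1 was high at 1.14 with the nearest at 0.94.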

How the results depend on the processing

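No member was called under any of the 25 alternatives or at an adjusted p below 0.10, and the lowest adjusted limma p any of them gave was 0.112. The count of members with an unadjusted p below 0.05, 7 as reported, beside 15.9% of all genes, was 3 with normexp background correction (beside 9.76%), 3 with the mean of all probes (16.2%), 2 with body weight as a covariate (8.34%), 0 with slide as a fixed block (3.98%) and 0 within slide 2 (4.14%). The standard errors of 0.19 to 0.24 within slide 2, which has 1 control, leave such a count little power. The count ran from 2 to 7 when each animal was left out in turn. The median member difference was -0.13 with median scaling. The sign held under every alternative for 11 of the 38 genes and turned under some for 27, and the cause was not tested. Differences with the sign turned, on the log2 scale, were as follows. Under normexp they were Atg7 0.0073 and Calcoco1 0.0091. Under median scaling, which lowers every difference by the same amount, they were Ulk1 -0.077, Pik3c3 -0.038, Pik3r4 -0.031, Atg10 -0.072, Atg16l1 -0.066 and Mitf -0.0056. Under quantile normalisation they were Becn1 0.0011, Pik3c3 -0.0063, Pik3r4 -0.039, Uvrag 0.016, Wipi1 0.036, Atg10 -0.084, Gabarapl2 0.013, Lamp2 0.011 and Rab7 0.040. With the mean of all probes of a gene they were Ulk1 -0.093, Wipi1 0.038, Atg3 0.048, Atg16l1 -0.011, Atg4c 0.074, Map1lc3b 0.030, Gabarapl2 0.099, Lamp2 0.11 and Rab7 0.0020. With array weights they were Calcoco1 0.023 and Rab7 0.0064. With body weight as a covariate they were Ulk1 -0.052, Pik3r4 -0.024, Wipi1 0.040, Atg7 0.045, Atg10 -0.0035, Map1lc3b 0.028, Gabarap 0.055, Gabarapl2 0.042, Calcoco1 0.027, Tfe3 0.023, Lamp1 0.0090 and Rab7 0.083. With slide as a fixed block, and equally within slide 2, they were Ulk2 0.12, Pik3r4 -0.25, Wipi1 0.16, Wipi2 0.030, Atg5 -0.045, Atg16l1 -0.018, Atg4b -0.024, Map1lc3a -0.012, Sqstm1 -0.056, Calcoco1 0.10, Tfe3 0.11, Mitf -0.14 and Lamp2 0.050. Leaving out each animal in turn turned the sign of 13 genes, with ranges of Ulk1 -0.037 to 0.092, Ulk2 -0.11 to 0.017, Rb1cc1 -0.098 to 0.017, Pik3r4 -0.030 to 0.13, Wipi1 -0.074 to 0.040, Atg7 -0.11 to 0.047, Atg10 -0.0092 to 0.083, Map1lc3b -0.083 to 0.012, Gabarapl2 -0.11 to 0.025, Calcoco1 -0.059 to 0.081, Tfe3 -0.059 to 0.0071, Lamp2 -0.044 to 0.016 and Rab7 -0.10 to 0.046. The replicate number as a block gave 5 members with an unadjusted p below 0.05. Animals with the same number did not deviate together (correlations of -0.05, 0.18, -0.11, -0.14 and 0.07). Whether the numbers mark pairs by design cannot be told from the levels. All 38 genes passed the background flag on every array.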
